A study of Mus musculus with 15 samples.

Results

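Oligodendrocyte and myelin genes were examined in a list of H3K4me3 peak summits from the amygdala of adult male WT mice. The set held 36 genes of the oligodendrocyte lineage, listed by symbol, among 21938 protein-coding genes of GENCODE M21 on GRCm38 (also called mm10). Of these, 29 were taken as genes of mature, myelin-forming cells, 3 (Gpr17, Bcas1 and Enpp6) as genes of cells committed to differentiate, 2 (Pdgfra and Cspg4) as genes of precursors, and 2 (Olig1 and Olig2) as regulators of the whole lineage. For each gene, the summits within 1 kb of any annotated transcription start site (TSS) were taken as promoter summits, and the highest-scoring of them as its best summit. Summits inside the gene and farther than 1 kb from each of its TSSs were taken as gene body summits.

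The WT mice were males of the F1 generation 129xB6, which the Methods describe as a cross of 129S1/SvImJ and C57/BL6 lines. Native ChIP-seq was run on amygdala nuclei digested with micrococcal nuclease, and the list pools 2 WT H3K4me3 samples called against 1 WT input. The series comprised 15 samples, 11 of H3K4me3 and 4 of input, and the Kmt2a-HET, Kdm5c-KO and DM mice, with 3 H3K4me3 samples each, were not analysed here. Because the WT samples were pooled into 1 list, no value below carries a spread between mice and no test was made. Intervals given for shares are 95% Wilson intervals and cover counting error only. They treat genes as independent draws, while the genes were chosen by symbol, so they are a description and not a test.

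Oligodendrocytes arise from dividing precursors, which carry the PDGF receptor PDGFRA and the proteoglycan NG2, and differentiate through a short-lived committed stage into cells that wrap axons in myelin. Myelin is a compacted membrane stack rich in galactolipids and in a small set of abundant proteins, and it lets axons conduct rapidly. H3K4me3, the trimethyl mark on lysine 4 of histone H3, is concentrated at the starts of genes that are transcribed or poised, and it covers most promoters rich in CpG dinucleotides in nearly any cell type.

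The score of a summit was read as −log10 of the q-value of its peak against input. A higher score thus stands for stronger statistical evidence of enrichment over input, and it is not the size of that enrichment. It depends on sequencing depth and on the share of cells that carry the mark, and it is not a level of histone methylation. In whole tissue, fewer nuclei of a cell type and less of the mark in each nucleus cannot be told apart. The 24139 summits on chromosomes 1 to 19, X and Y had a median score of 102.3 and a range of 1.18 to 341.7.

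A promoter summit was found at 32 of the 36 oligodendrocyte and myelin genes (88.9%, 95% interval 74.7 to 95.6), where 64.7% of all protein-coding genes had one. That background includes genes that are silent in brain. The best summits of the 32 genes had a median score of 99.5, with quartiles of 78.8 and 143.2 and a range of 33.3 to 261.3. Among the 14197 protein-coding genes with a promoter summit the median was 194.6 and the quartiles were 129.8 and 230.2. The set was thus marked more often than coding genes at large but with low scores, as 23 of the 32 genes lay below the lower quartile of marked coding genes and 2, Tppp and Car2, lay above their median.

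**Figure D1:**
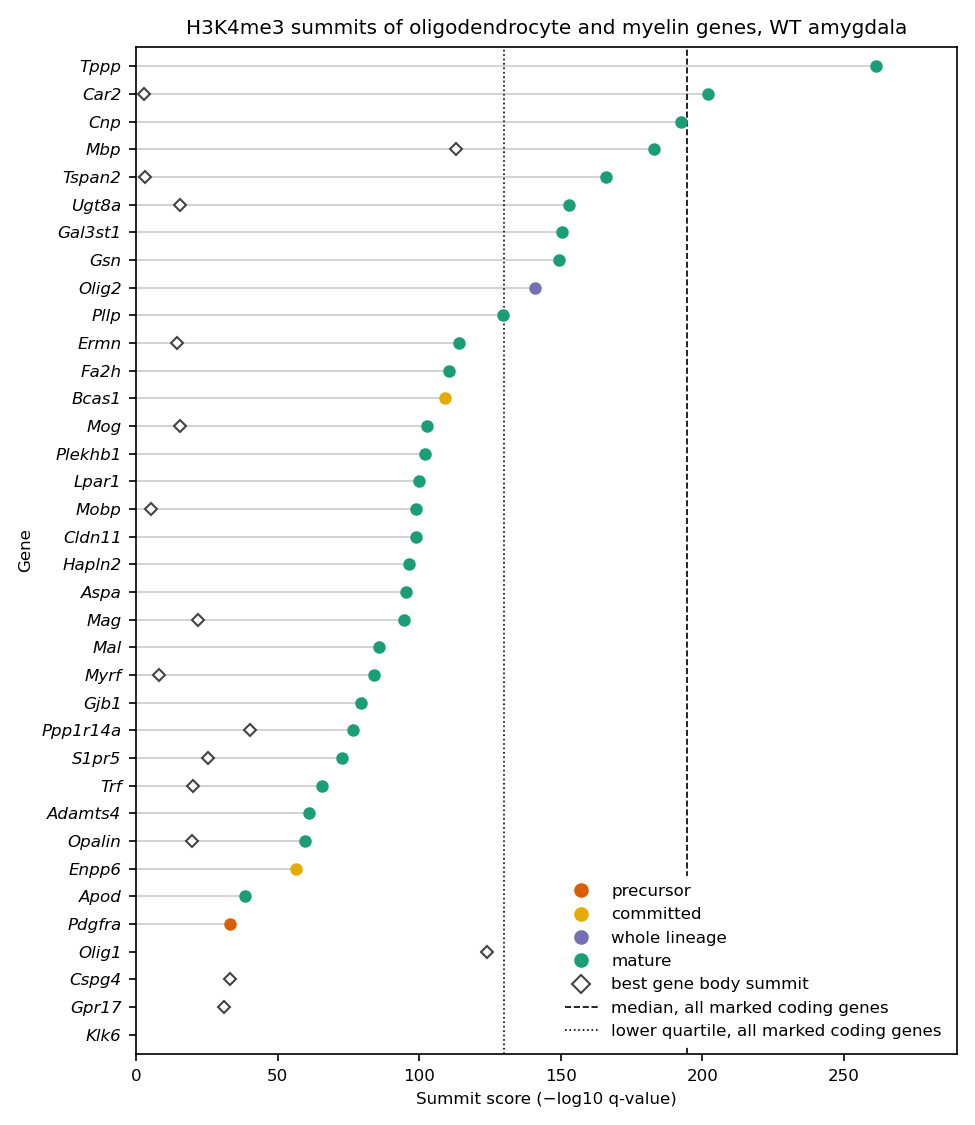
Summit scores (horizontal axis, −log10 q-value) of the 36 genes, ordered by best promoter summit (filled circles, coloured by stage), with the best gene body summit as an open diamond. Of the 32 circles, 2 lie right of the dashed line at 194.6, the median of marked coding genes, and the 4 genes at the bottom have no promoter summit.

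The promoters of 6 genes are shown as sequence because they carried summits of different scores over very different base composition. Tppp had the highest score, and Ugt8a the promoter richest in CpG. Cldn11 and Mog had nearly equal scores, and Ermn and Opalin were marked on promoters poor in CpG. Each run gives the 250 bases before the RefSeq start site (RefSeq, GRCm38.p6), 5′ to 3′ on the strand of the gene, with every CpG in capitals.
Tppp, chr13:74009169-74009418, plus strand: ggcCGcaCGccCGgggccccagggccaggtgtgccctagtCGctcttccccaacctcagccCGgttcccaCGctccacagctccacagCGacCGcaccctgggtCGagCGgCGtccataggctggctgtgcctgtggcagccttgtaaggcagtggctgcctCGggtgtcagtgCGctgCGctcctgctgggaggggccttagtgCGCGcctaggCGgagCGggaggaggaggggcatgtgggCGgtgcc
Ugt8a, chr3:125938653-125938902, minus strand: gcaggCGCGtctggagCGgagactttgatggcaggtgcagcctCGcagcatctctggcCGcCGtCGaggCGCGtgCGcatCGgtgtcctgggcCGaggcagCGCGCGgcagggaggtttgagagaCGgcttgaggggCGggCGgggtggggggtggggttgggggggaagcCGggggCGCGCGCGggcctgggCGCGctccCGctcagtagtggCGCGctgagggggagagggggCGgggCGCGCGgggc
Cldn11, chr3:31149670-31149919, plus strand: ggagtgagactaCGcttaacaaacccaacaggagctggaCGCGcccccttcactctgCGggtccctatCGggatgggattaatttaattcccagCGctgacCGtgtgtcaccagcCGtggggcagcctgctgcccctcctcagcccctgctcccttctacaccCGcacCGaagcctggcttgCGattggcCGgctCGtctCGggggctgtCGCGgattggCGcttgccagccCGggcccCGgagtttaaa
Mog, chr17:37023399-37023648, minus strand: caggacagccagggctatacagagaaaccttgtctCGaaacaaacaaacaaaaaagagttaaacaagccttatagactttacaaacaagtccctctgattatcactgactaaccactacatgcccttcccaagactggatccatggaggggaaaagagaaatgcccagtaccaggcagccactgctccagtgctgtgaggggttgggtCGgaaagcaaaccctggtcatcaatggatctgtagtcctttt
Ermn, chr2:58052865-58053114, minus strand: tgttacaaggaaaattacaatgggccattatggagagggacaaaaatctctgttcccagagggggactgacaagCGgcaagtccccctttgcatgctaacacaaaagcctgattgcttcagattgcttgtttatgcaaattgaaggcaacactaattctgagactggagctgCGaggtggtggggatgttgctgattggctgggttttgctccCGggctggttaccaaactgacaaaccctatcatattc
Opalin, chr19:41077114-41077363, minus strand: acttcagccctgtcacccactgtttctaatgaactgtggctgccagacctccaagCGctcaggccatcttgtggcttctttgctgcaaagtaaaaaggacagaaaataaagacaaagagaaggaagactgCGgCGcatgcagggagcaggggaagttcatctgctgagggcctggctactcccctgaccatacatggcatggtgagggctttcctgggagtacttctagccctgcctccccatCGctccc

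These stretches held 32 CpGs at Ugt8a, 19 each at Tppp and Cldn11, 4 at Opalin, 3 at Ermn and 2 at Mog. The best summit lay 661 bp downstream of the RefSeq start at Tppp, 614 bp at Cldn11, 478 bp at Opalin, 383 bp at Ugt8a, 227 bp at Mog and 226 bp at Ermn. None of these summits therefore fell within the bases shown.

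Genes grouped as myelin membrane or junction proteins, with the matrix protein Hapln2 counted among them, were all marked, 12 of 12. Their median best score was 99.0, with a range of 59.5 to 182.9. The share of all coding genes was 64.7%, which also applies to the counts by protein type that follow. Of these, 10 lay below the lower quartile of marked coding genes. Mbp (ENSMUSG00000041607), which encodes myelin basic protein, the adhesive of the cytoplasmic faces of compact myelin, was the highest at 182.9. That summit lay at the outer starts of Mbp. At the starts of the classic myelin basic protein transcripts, described below, the only promoter summit scored 3.96. Tspan2, a tetraspanin of myelin, followed at 166.1, with its summit 105 bp upstream of a TSS and the antisense gene Tspan2os also starting within 1 kb. Pllp, the proteolipid plasmolipin, scored 129.6. Mog, an immunoglobulin-type protein of the outermost myelin layer, scored 102.8, in exon 1 and 28 bp downstream of a TSS. Plekhb1, a membrane-associated protein with a pleckstrin homology domain, scored 102.0.

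Cldn11, the claudin of the tight junctions between myelin layers, and Mobp, a basic protein of compact myelin, both scored 99.0. Hapln2, a link protein of the matrix at nodes of Ranvier, scored 96.3 at an inner start and 61.2 at its protein-coding start. Mag, the adhesion protein that faces the axon, scored 94.8. Mal, a proteolipid of membrane rafts, scored 85.9 and Gjb1, the gap junction protein connexin 32, scored 79.5. Opalin, a glycoprotein of the oligodendrocyte surface, was the lowest of this group at 59.5, higher than 13.0% of marked coding genes. Apart from Mbp, Tspan2 and Pllp, the 9 remaining genes thus lay between 59.5 and 102.8.

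Enzymes of lipid, acetyl and nucleotide metabolism were marked at 7 of 7 genes, with a median of 150.3. Car2, the cytosolic carbonic anhydrase, scored 202.1, with its summit in exon 1 and 66 bp downstream of a TSS. Cnp, the 2′,3′-cyclic nucleotide phosphodiesterase of non-compact myelin, scored 192.4. Both genes of the galactolipid pathway that act in sequence scored alike, 153.0 at Ugt8a, which makes galactosylceramide, and 150.3 at Gal3st1, which sulfates it to sulfatide. Fa2h, which hydroxylates the fatty acids of these lipids, scored 110.7. Aspa, which splits N-acetylaspartate, scored 95.3. Enpp6, a choline phosphodiesterase of newly forming oligodendrocytes, was lowest at 56.4 and had a second summit of 4.09 at a TSS 95434 bp inside the gene.

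Cytoskeletal proteins and signalling adaptors were marked at 5 of 5 genes, with a median of 114.1. Tppp, which bundles microtubules and nucleates them in myelin sheaths, had the highest score of the set at 261.3, above 93.1% of marked coding genes. Its summit lay 661 bp downstream of the TSS in intron 1, and the gene Gm15912 also has a TSS within 1 kb of it. Gsn, the actin-severing protein gelsolin, scored 149.5 at its outer starts and 32.9 at a start 26000 bp farther inside. Ermn, an actin-binding protein of late differentiation, scored 114.1, Bcas1, a cytoplasmic protein that marks cells starting to myelinate, scored 109.0, and Ppp1r14a, an inhibitor of myosin phosphatase, scored 76.6.

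Receptors and surface proteins were marked at 3 of 5 genes, none above 100.1. Lpar1, a receptor for lysophosphatidic acid, scored 100.1. S1pr5, a sphingosine 1-phosphate receptor, scored 72.7, with the TSS of Gm48303 nearer to the summit than its own. Pdgfra, the receptor of the main precursor mitogen, scored 33.3, and Cspg4 and Gpr17 had no promoter summit.

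Secreted proteins and proteases were marked at 3 of 4 genes. Trf, the iron carrier transferrin, scored 65.7 at a summit 176 bp downstream of a TSS and 30.0 at another 401 bp upstream of its outermost TSS. Adamts4, a protease of matrix proteoglycans, scored 60.9, and this summit lay nearer a TSS of another gene. Apod, the lipid carrier apolipoprotein D, scored 38.4. Klk6, a secreted serine protease, had no summit within 1 kb of a TSS.

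The transcription factors were Myrf, which is required for myelin genes to be expressed, and the basic helix-loop-helix factors Olig1 and Olig2, which specify the lineage. Olig2 scored 141.0, 403 bp downstream of its TSS in intron 1. Myrf scored 84.2, 450 bp downstream of a TSS, and had a gene body summit of 8.07 in intron 4. Olig1 had no promoter summit by the 1 kb rule. Its TSS and that of Olig2 lie 44315 bp apart on chromosome 16.

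Of the 29 mature genes, 28 had a promoter summit (96.6%, 95% interval 82.8 to 99.4), with a median best score of 99.5. Of the 5 precursor and committed genes, 3 had one (60.0%, 23.1 to 88.2), scoring 33.3 at Pdgfra, 56.4 at Enpp6 and 109.0 at Bcas1. Among all coding genes 64.7% had one, so the share of these 5 genes lay near that of coding genes at large. The ranges of scores overlap, since the mature genes ran from 38.4 to 261.3. The intervals of both shares also overlap, but with 5 genes chosen by symbol this says nothing about stage. Bcas1 scored above the median of the mature genes, and Pdgfra below each of them. The Bcas1 summit lay at an inner start. With the 5′-most TSS alone, Bcas1 had no promoter summit and Pdgfra scored 13.2. In that setting 2 of the 5 precursor and committed genes and 24 of the 29 mature genes had one, against 58.2% of all coding genes. Whether precursors and mature genes differ was not tested, as genes of 1 pooled list are not replicates of a stage.

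Most genes without a promoter summit had one a short way inside the gene. At Olig1 a summit of 124.0 lay in exon 1, 1223 bp downstream of the only TSS, and at Cspg4 a summit of 33.3 lay 1105 bp downstream in intron 1. At Gpr17, a receptor of committed cells, summits of 30.9 and 3.24 lay 1874 and 4335 bp downstream in exon 2. The score of 124.0 at Olig1 lay between those of the best summits of Pllp and Ermn. With a window of 3 kb these 3 genes were counted, which gave 5 of 5 precursor and committed genes, against 67.1% of all coding genes.

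Klk6 was the only gene of the set without a promoter or gene body summit. The nearest summit lay 27143 bp upstream of its outermost TSS, with a score of 44.7, and was nearest the TSS of the neighbouring kallikrein gene Klk8.

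On the inside of the 1 kb limit, the summit nearest to it was a second one of Apod, scoring 5.82 and 939 bp upstream of a TSS, and the nearest best summits were those of Adamts4, 798 bp upstream, and Gjb1, 793 bp downstream. On the outside, a gene body summit of Trf lay 1093 bp upstream of a TSS, followed by those of Cspg4 at 1105 bp, Mbp at 1181 bp and Olig1 at 1223 bp.

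The best summit lay downstream of the TSS in 27 of the 32 marked genes, where 79.3% of all marked coding genes had it there. The median distance was 282 bp downstream for the set and 171 bp for all marked coding genes. The exceptions were Mag, Lpar1, Tspan2, Pdgfra and Adamts4, with summits 63 to 798 bp upstream of the nearest TSS of the gene. In each of them that TSS was an inner one. The summits lay 483, 463, 581, 2224 and 897 bp downstream of the outermost TSS in turn, and so inside the gene. At 6 of the 32 genes (Tspan2, Pdgfra, Trf, Tppp, Adamts4 and S1pr5) a TSS of another gene also lay within 1 kb of the best summit, so these summits cannot be given to 1 gene alone.

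More than 1 promoter summit was found at 10 of the 36 genes, against 11.7% of all coding genes. That share also counts genes without a promoter summit (2569 of 21938, where 14197 had at least 1). The same was found at 8 of 38 other oligodendrocyte-lineage genes, 3 of 16 astrocyte, 3 of 14 neuron and 3 of 10 endothelial markers. At Mbp, Enpp6, Pllp and Apod the second summit scored only 3.96, 4.09, 5.12 and 5.82. At several of the 10 genes the summits belonged to separate starts. Mbp has 4 TSSs within 224 bp of its outer end, which give the long Golli-type transcripts, and the starts of the classic myelin basic protein transcripts lie 79324 to 79434 bp farther inside. The best summit, 182.9 at chr18:82475893, lay at the outer starts, in intron 1. At the classic starts the only promoter summit scored 3.96, 657 bp upstream. A summit of 112.9 at chr18:82555761 lay in intron 4, 1181 bp downstream of the last classic start, and so was counted as a gene body summit. The score that represents Mbp above is therefore that of its outer starts.

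Plekhb1 had summits of 102.0 and 99.3 at starts 5461 and 4050 bp inside its outermost TSS, and none at the outermost TSS itself. Hapln2 had 96.3 at the start of a retained-intron transcript 3910 bp inside the gene and 61.2 at its protein-coding start. Lpar1 had 100.1 at its outer starts and 34.9 at a start 54495 bp inside. At 3 other genes the single promoter summit lay at an inner start, 21336 bp inside the outermost TSS at Bcas1, 7358 bp at Gjb1 and 5259 bp at Aspa. Pdgfra, by contrast, had 4 low summits of 33.3, 32.4, 13.2 and 8.07, spread from 544 bp upstream to 4231 bp downstream of its outermost TSS, and the genes Gm42802 and Gm42803 have TSSs within 1 kb of the best of them.

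**Figure D2:**
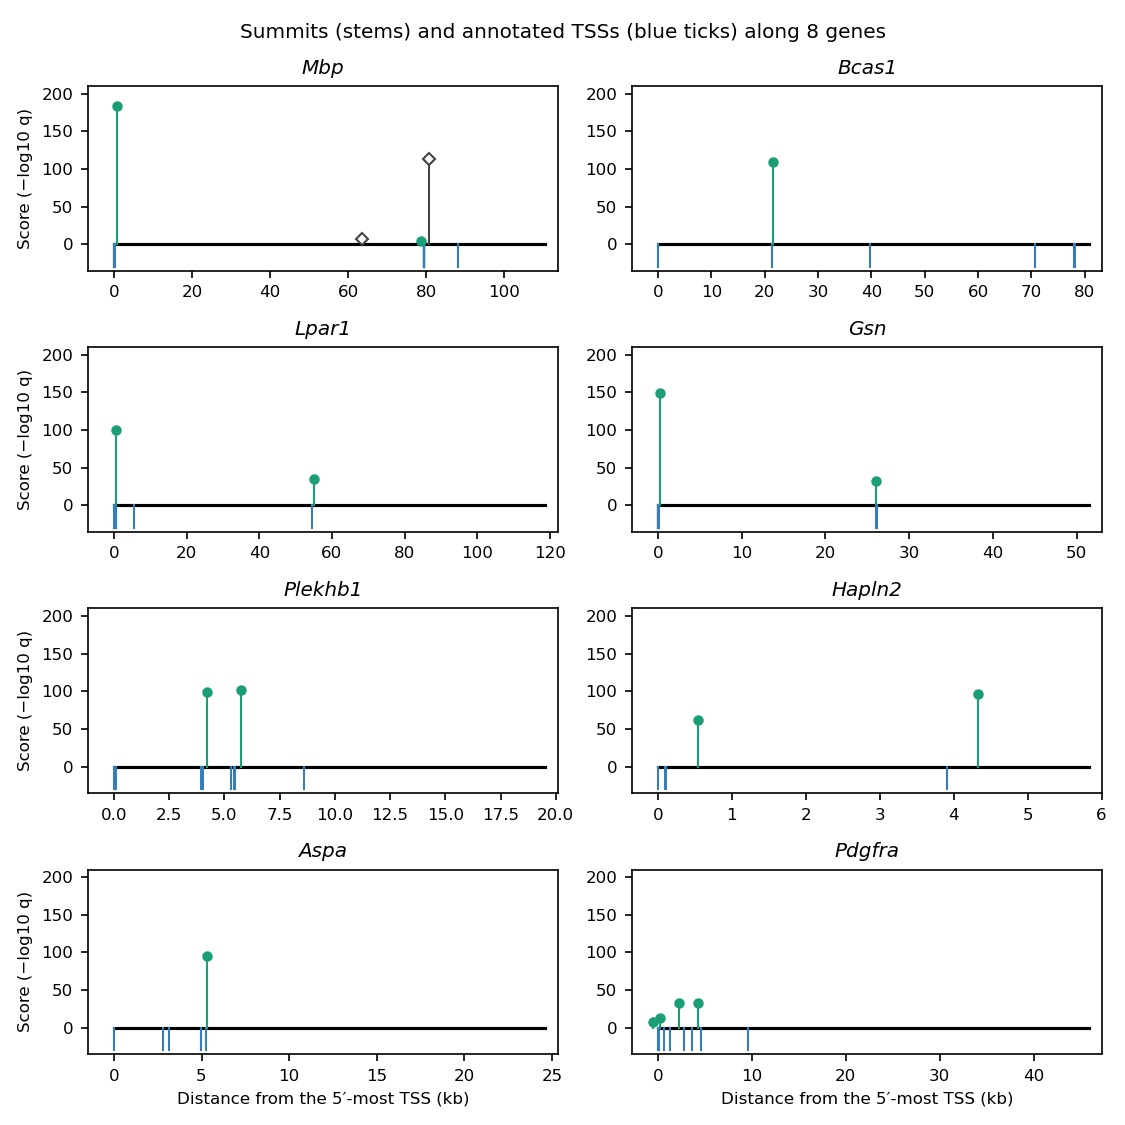
Summits along 8 genes with several annotated starts, drawn from the outermost TSS (0) to the end of the gene (black line, kb), with stem height giving the score (−log10 q-value), filled circles for promoter summits, open diamonds for gene body summits and blue ticks for TSSs. Mbp shows 182.9 at its outer end and 112.9 just past its inner starts, and the single summit of Bcas1 stands 21624 bp inside the gene.

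A gene body summit was found in 16 of the 36 genes, against 14.7% of all coding genes. Apart from those at Olig1 and Mbp, they scored between 2.35 and 40.1. The highest of these lay in intron 2 of Ppp1r14a, 2281 bp from a TSS, and Cspg4 and Gpr17 followed. Mog and Ermn held a pair each, scoring 15.4 and 5.31 in intron 2 of Mog and 14.3 and 5.31 in exon 3 of Ermn. Opalin held 19.8 and 6.20 in intron 1, Ugt8a 15.4 and 8.07 in intron 2, and Mag 21.9 in exon 5 and 12.3 in exon 6. Gene body summits were also found in 9 of 14 neuron markers, 7 of 16 astrocyte markers and 4 of 10 endothelial markers. They were found as well in 18 of 38 other genes of the oligodendrocyte lineage, so they were not particular to the set.

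The other oligodendrocyte-lineage genes, a list of 38 symbols outside the set, were marked at 37, with a median best score of 110.7. Among the highest were Lhfpl3 at 241.7 and Sirt2 at 220.1, and both summits also lay within 1 kb of a TSS of another gene (A930003O13Rik and Nfkbib in turn). C1ql1 had none. In the astrocyte list, 15 of 16 genes were marked with a median of 95.5, led by the glutamate transporters Slc1a2 at 188.4 and Slc1a3 at 174.3 and the glycolytic enzyme Aldoc at 151.7, and Mlc1 was without one. In the neuron list, 13 of 14 were marked with a median of 218.8, led by Map2 at 284.3, Camk2a at 272.5 and Snap25 at 266.8, and Stmn2 was without one. In the endothelial list, 10 of 10 were marked with a median of 33.2, led by Kdr at 75.4, Abcb1a at 47.2 and Slco1a4 at 40.2. The median of the oligodendrocyte and myelin genes thus stood next to that of the astrocyte list, below that of the neuron list and above that of the endothelial list. Of the 13 marked neuron genes, 9 lay above the median of all marked coding genes, compared with 2 of 32 in the set. The share of each cell type among the nuclei was not measured in these data, and its part in the scores was not tested.

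**Figure D3:**
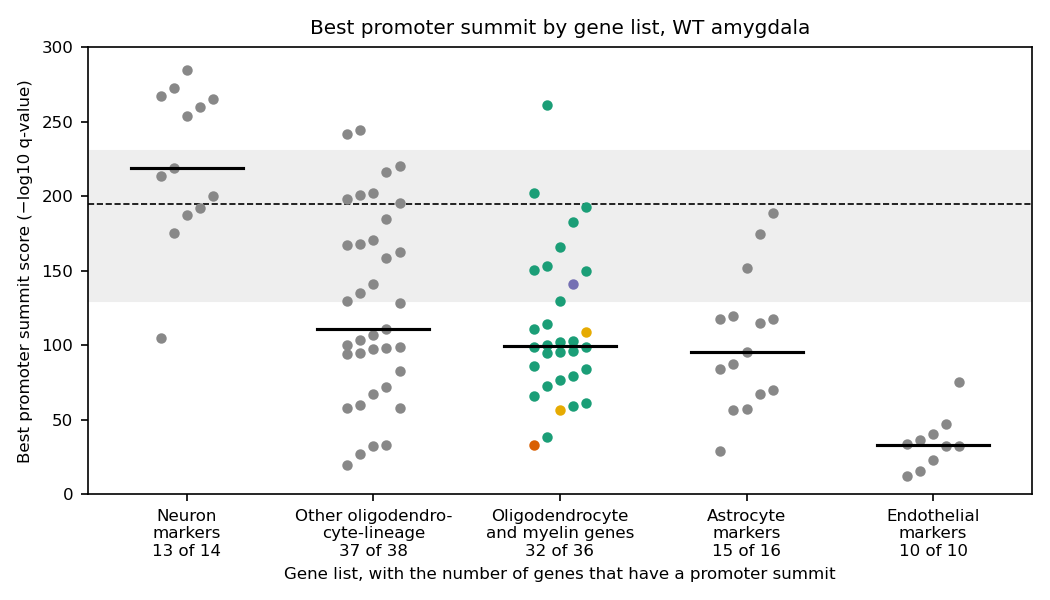
Best promoter summit score (vertical axis, −log10 q-value) of each marked gene in 5 lists, with a bar at the list's median, the dashed line at the median of marked coding genes (194.6) and grey between their quartiles. Medians ran from 218.8 for neuron markers through 110.7, 99.5 and 95.5 for both oligodendrocyte lists and astrocyte markers to 33.2 for endothelial markers.

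Promoter CpG content was measured at the TSS nearest the best summit, or at the outermost TSS of a gene without one, as the ratio of CpGs present to those its C and G content would give, over 500 bp on each side. It ran from 0.17 at Mog and Apod to 0.93 at Ugt8a, with a median of 0.47 for the set and 0.59 for all coding genes. Across the 32 marked genes, score and CpG content had a Pearson's r of 0.53 and a Spearman's rho of 0.52, and across all 14197 marked coding genes 0.36 and 0.26. These correlations are across genes of 1 pooled list and are given as a description.

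Coding genes were divided into 10 groups of equal size by CpG content. In the 3 groups with the least CpG, up to 0.30, 9.50% of coding genes had a promoter summit, and 9 of the 11 genes of the set that fell there had one. These were Mog, Mag, Ermn, Opalin, Aspa, Enpp6, Apod, Adamts4 and Plekhb1, and those without were Gpr17 and Klk6. Each of the 9 scored above the median of the marked coding genes of its own CpG group, 21.1 or 31.3, with Mog at 102.8, Plekhb1 at 102.0 and Ermn at 114.1. In the other 7 groups 88.4% of coding genes were marked, and 23 of 25 genes of the set were. Of these 23, 21 scored below the median of their group, and 2, Tppp and Cnp, above it.

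**Figure D4:**
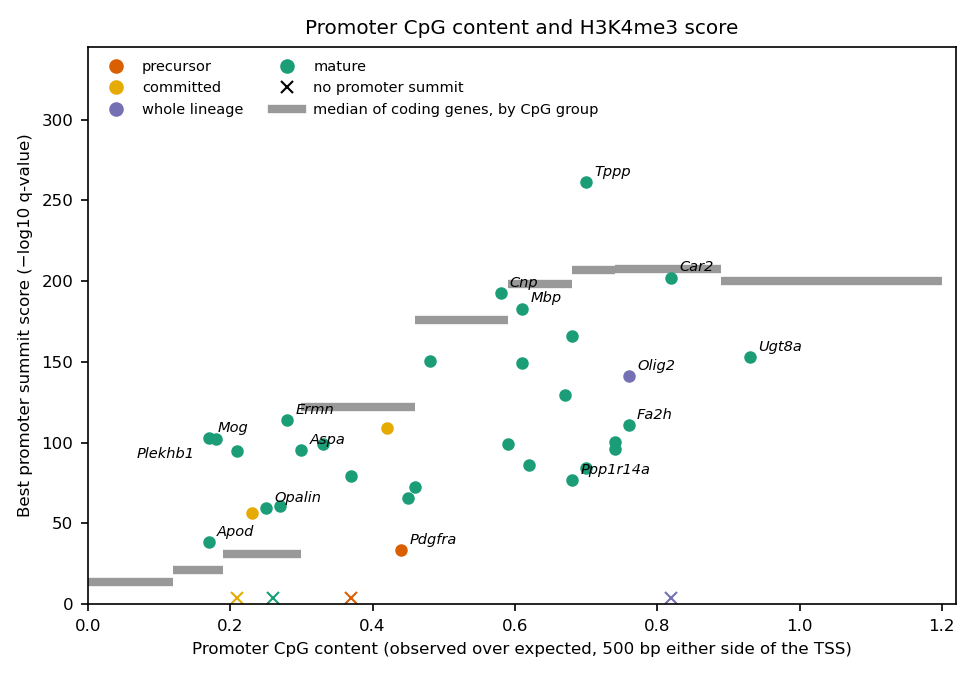
Best promoter summit score (vertical axis, −log10 q-value) against promoter CpG content (horizontal axis, observed over expected) for the 36 genes, coloured by stage, with crosses at the foot for the 4 without a promoter summit and grey bars at the median of marked coding genes in each of 10 CpG groups. Left of 0.30 the 9 marked genes lie above the bars, and right of it 21 of 23 lie below.

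The standing of these scores within the CpG-poor groups changed with the TSS at which CpG content was taken, which also sets the limits between groups anew. With the outermost TSS used for every gene, an alternative chosen after the data were seen, 16.0% of coding genes in the 3 CpG-poorest groups were marked and 9 of the 11 genes of the set there, but 8 of these 9 scored below the median of their group and 0 above it. In the other 7 groups 85.6% of coding genes were marked, and 23 of 25 genes of the set, of which 22 scored below the median of their group. At Mog, Mag, Opalin, Enpp6, Apod and Adamts4 the promoter was CpG-poor by both measures. Bcas1, Gjb1 and Hapln2, with best summits at inner starts of 0.42, 0.37 and 0.74, entered these groups when the outermost TSS was used. Ermn, with a single TSS, left them because the limits moved.

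RefSeq promoters were found for 27 of the 36 genes and were searched on both strands for short letter patterns in the 250 bases before the start, beside all 32817 promoters of the same table. The pattern ACAAAG or ACAATG, of the kind bound by SOX proteins, which include regulators of this lineage, was present in 14 of 27 promoters (51.9%), where 25.2% of all promoters held it. These were Mobp, Cnp, Ermn, Olig2, Opalin, Gjb1, Tspan2, Gal3st1, Enpp6, Hapln2, Apod, Klk6, Lpar1 and Plekhb1, so that it was present both at CpG-rich and at CpG-poor promoters and at 1 gene without a promoter summit. The pattern CTGGCAC or CTGGTAC, of the kind bound by MYRF, was present in 4 (14.8%), at Mog, Cnp, Hapln2 and S1pr5, against 5.92% of all. TATAAA was present in 3 (11.1% against 12.4%), the E-box CAGCTG in 3 (11.1% against 13.0%) and CCAAT in 8 (29.6% against 33.8%). A promoter was counted once for each pattern, also where matches of different patterns shared bases. A match describes letters and does not show that a protein binds there.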

How the data were processed

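H3K4me3 ChIP-seq had been performed on amygdala nuclei of WT and mutant mice, and the WT peak list was used. Per the labels, the authors processed the reads with Bowtie and SAMtools and called peaks with MACS2 2.1.0.20140616 on mm10. They deposited 1 list for both WT mice, with positions and a score. The file does not name the score, and the deposited values were read as −log10 of the q-value. Depth per sample is not given by the list, and while the Methods describe removal of black-list regions from the counts over common peaks, whether it was applied to this list is not stated.

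Of 24162 lines, each 1 bp long, those on chromosomes 1 to 19, X or Y (24139) entered the analysis, and peak widths could not be measured. They were joined to GENCODE M21 TSSs and gene spans. CpG content and promoter sequences were read from GRCm38.p6 and RefSeq. No test was run, because 1 pooled list has no replicates. All 36 genes of the set are named. Of the other lists, the 3 highest-scoring genes and up to 5 without a promoter summit are named, and further genes only where they share or lie nearest a summit described. Some genes that this rule would name are not reported here. The genes, stages and lists were chosen with earlier results of these data known. Alternatives covered the window, score threshold, TSSs used, assignment and joining of summits. The assignment was tested on simulated summits placed at long genes with 1 TSS and no TSS of another gene nearby. Inner starts and shared promoters were not covered by that test. Python 3.11.15, numpy 2.4.6, scipy 1.17.1, pysam 0.24.0, samtools 1.23.1 and matplotlib 3.10.9 were used.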

Additional observations from a re-analysis of the deposited data

How the results depend on the processing

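No paired analysis was possible because both WT mice stand in 1 pooled list, and for the same reason no replicate could be left out. Joining summits within 1 kb changed no count or median by more than the limit set, 1.5 times for counts and 10% for scores, and with a minimum score of 10 the same 32 genes of the set had a promoter summit. When the lower-scoring part of the list, below its median, was dropped, 14 of the 36 genes of the set kept a promoter summit (median 149.9). That share was below the 52.0% of all coding genes with the same cut, the reverse of the main setting. Among the 14 were 12 mature genes (median 151.6) and 1 of the precursor and committed genes. With this cut 0 genes of the set had more than 1 promoter summit and 2 had a gene body summit. With a 3 kb window, 5 precursor and committed genes had a promoter summit and 17 genes of the set more than 1. More than 1 promoter summit was found at 6 genes with scores of 10 or more. The matching share of all coding genes is given under the main setting only. With the 5′-most TSS alone, 2 genes had more than 1 promoter summit, 28 had a gene body summit, since summits at inner starts then counted as such, Pdgfra scored 13.2 and Hapln2 61.2, and Aspa, Bcas1, Gjb1, Mal and Plekhb1 had no promoter summit. With 500 bp, Adamts4, Cldn11, Gjb1, Mal, Mbp, Ppp1r14a and Tppp had none, and with each summit given to the gene of the nearest TSS, Adamts4 and S1pr5 had none. Hapln2 also scored 61.2 with TSSs of protein-coding transcripts only.

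The share of all coding genes with a promoter summit was 57.1% with 500 bp, 67.1% with 3 kb, 52.0% at or above the median score, 62.7% at scores of 10 or more, 58.2% with the 5′-most TSS, 63.5% with coding transcripts, 57.2% with the nearest TSS and 65.6% with RefSeq TSSs added, the last chosen after seeing the data, as were most alternatives for the counts of genes with more than 1 promoter summit or a gene body summit. Without replicates or depth, a difference between genes cannot be set against the spread between mice, and a summit absent from the list was below the caller's threshold at this depth.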

Other observations

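Some summits lay near genes of the set and away from any annotated TSS. Upstream of Mog, a summit 5527 bp from its outermost TSS scored 138.4, above the 102.8 of the Mog promoter, and no gene annotation covers it. Upstream of Pllp, summits of 147.2 and 100.7 lay 7186 and 8290 bp from its outermost TSS, outside annotated genes, and the first scored above the 129.6 of the Pllp promoter. Upstream of Opalin, a summit of 51.5 lay 9116 bp away, inside Tll2, close to the 59.5 of the promoter. At Mobp, Cnp and Adamts4, upstream summits scored 10.1, 11.7 and 8.95. Downstream of Mobp, a summit of 66.4 lay within Gm38642, 2032 bp from the nearest TSS. These summits were sought within 20 kb of each gene, and whether they belong to the genes named was not tested.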
